A study of Mus musculus with 8 samples.

Results

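The interferon response and MHC class I genes described here are 40 genes fixed by symbol. They comprise 5 interferon signalling factors, 4 sensors of foreign nucleic acid, 17 antiviral effectors, 5 ubiquitin and ADP-ribose factors, and 9 genes of MHC class I and peptide loading. Of the 40, 36 had a row in the table of hair follicle stem cells (HFSCs, 23861 genes), 29 had a row in the table of epidermal stem cells (EpdSCs, 16231 genes), and 27 had a row in both. Isg15 and Trim30a were not analysed here in either cell type.

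The libraries were bulk RNA-seq of stem cells sorted from telogen mouse dorsal skin, telogen being the resting phase of the hair cycle, and the question was how they differ when the homeobox gene Msx2 is lost. HFSCs were gated as CD34+ CD49f+ Sca-1- cells and EpdSCs as CD34- CD49f+ Sca-1+ cells. Each cell type had 2 WT and 2 Msx2-KO libraries, 8 in all. Msx2-KO mice carried a constitutive homozygous allele made by targeting in embryonic stem cells, so every cell of the mouse carried it, and WT mice were C57BL/6J at a matched hair cycle stage. All 4 EpdSC libraries came from mice labelled 6 months old, whereas HFSCs came from 2-month-old WT and 6-month-old Msx2-KO mice, so that in HFSCs genotype and age cannot be told apart. The submitters' library names also went with genotype, by prefix in HFSCs and by number in EpdSCs. What these names stand for is not given, so any difference behind them cannot be told apart from genotype. Nothing in the labels says that replicates were separate mice, and p-values therefore measure only the spread between these samples.

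Interferons are secreted proteins that act through cell surface receptors and Janus kinases. Type I and type III interferons act through a complex that contains STAT2 and IRF9 and binds the interferon-stimulated response element (ISRE), whereas interferon gamma acts through the gamma-activated site (GAS) and induces IRF1. MHC class I molecules show peptides to CD8 T cells: the proteasome cuts the peptides, the TAP transporter moves them into the endoplasmic reticulum, and tapasin helps to load them onto a heavy chain bound to beta-2 microglobulin. The hair follicle epithelium is known as a site of low MHC class I display, and keratinocytes answer interferon strongly.

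The depth and quality of the libraries limited every comparison. The HFSC libraries held 3132974 to 11016659 counts, of which mitochondrial ribosomal RNA took 8.94% and 36.3% in WT libraries but 49.4% and 53.2% in Msx2-KO. Of the 14422 HFSC genes tested, 0.118% and 0.964% were at 0 in WT libraries 1 and 2, against 25.2% and 14.1% in Msx2-KO libraries 1 and 2. Of the 16231 EpdSC genes, 1.73% and 1.29% were listed at 0 in WT and 20.2% and 5.82% in Msx2-KO, and mitochondrial ribosomal RNA took 23.5% and 16.4% of the value in WT but 0.0730% and 6.18% in Msx2-KO. Across genes the WT libraries correlated at Pearson's r of 0.927 in HFSCs and 0.952 in EpdSCs, and the Msx2-KO libraries at 0.576 and 0.844. Msx2 itself measured 44.6 and 14.3 normalized counts in WT HFSCs and 27.5 and 24.1 in the HFSC libraries labelled Msx2-KO. Msx2 in EpdSCs measured 58.5 and 85.4 in WT against 150.3 and 22.2 in Msx2-KO, so gene-level values did not separate the genotypes in either cell type. Reads over the altered exons were not analysed here, and the direction of each comparison rests on the labels.

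In HFSCs, B2m, the light chain of every MHC class I molecule, had the lowest p of all members. As normalized, B2m and 5 other members (H2-K1, Psmb9, Irf7, Irf9 and Parp9) were higher in both Msx2-KO libraries than in both WT libraries. Relative to library totals, only Psmb9 of these stayed separated, and the log2 fold changes of H2-K1 and Irf9 turned negative. Another 6 members were lower in both Msx2-KO libraries, namely Ifih1, Usp18, Ifit2, Dtx3l, Trim25 and Tap1. Of the 26 members that passed the filter on low counts, 14 overlapped between genotypes. Over all genes tested, 17.5% were higher and 33.5% lower in both Msx2-KO libraries, 51.1% in all, so separated groups were common among all genes. The median log2 fold change (Msx2-KO minus WT) was 0.24 over the 26 members and -0.14 over all genes, with 15 members above 0 and 11 below. Scaled by library totals, the median of all genes was -1.002, and 4 members were above 0 and 22 below. By edgeR's quasi-likelihood test at an adjusted p under 0.05 and a fold change of at least 2, none of the 26 members was called, and none of the 14422 genes (0%). At an unadjusted p under 0.05, edgeR gave 3 members (B2m, Ifih1 and Ifit2), against 18.1% of all genes. Ifit2, at 0 counts in both Msx2-KO libraries, passed the filter through WT alone. Its direction was thus fixed beforehand in every fit of filtered counts, and its p is no support. DESeq2 called 1 member, B2m, and 4.67% of genes, and limma with a mean trend called B2m and Ifit2 and 9.76% of genes.

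In EpdSCs, H2-K1, an MHC class I heavy chain, and the tapasin gene Tapbp were higher in both Msx2-KO libraries, as were Stat2 and, narrowly, B2m. Relative to library totals B2m overlapped. Another 12 of the 29 members were lower in both Msx2-KO libraries, among them Parp14, Xaf1, Usp18 and Irf7, and 13 overlapped. Over all genes, 27.8% were higher and 44.5% lower in both Msx2-KO libraries, 72.3% in all. The median log2 fold change was -0.24 over the 29 members and -0.64 over all genes, with 12 members above 0 and 17 below. By limma's moderated test on log2(value + 1), none of the 29 members was called at an adjusted p under 0.05 and a fold of at least 2, whereas 9.35% of all genes were called (1.57% higher and 7.78% lower). At an unadjusted p under 0.05, limma gave 5 members (Tapbp, Parp14, Xaf1, Usp18 and Irf7), against 35.3% of all genes. edgeR on values divided by their step and rounded called none of 27 members and 0% of genes.

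Relative to protein-coding RNA, the summed level of the members was higher in both Msx2-KO libraries in both cell types, which in HFSCs was not so relative to library totals. The 36 members with an HFSC row summed to 2683 and 2073 CPM in WT (counts per 1000000 protein-coding counts), compared with 3880 and 3182 in Msx2-KO. The 29 members with an EpdSC row summed to 5304 and 4660 CPM in WT, compared with 6819 and 5994 in Msx2-KO. Per 1000000 of the library total, mitochondrial ribosomal RNA included, the HFSC sums were 2034 and 983.3 in WT against 1289 and 841.4 in Msx2-KO, which overlapped with a lower Msx2-KO mean, whereas the EpdSC sums were 3195 and 3148 against 6073 and 5116. With 2 libraries against 2, an exact two-sided permutation test cannot go below 0.333, which is the value that each of these separations gives. B2m, H2-K1 and H2-D1 alone carried 55.8% to 71.2% of the HFSC sum and 71.9% to 88.2% of the EpdSC sum. Without those 3 genes the groups overlapped, at 1186 and 810 CPM in WT against 1118 and 1106 in Msx2-KO HFSCs, and at 1490 and 1278 in WT against 805 and 1476 in Msx2-KO EpdSCs.

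**Figure D1:**
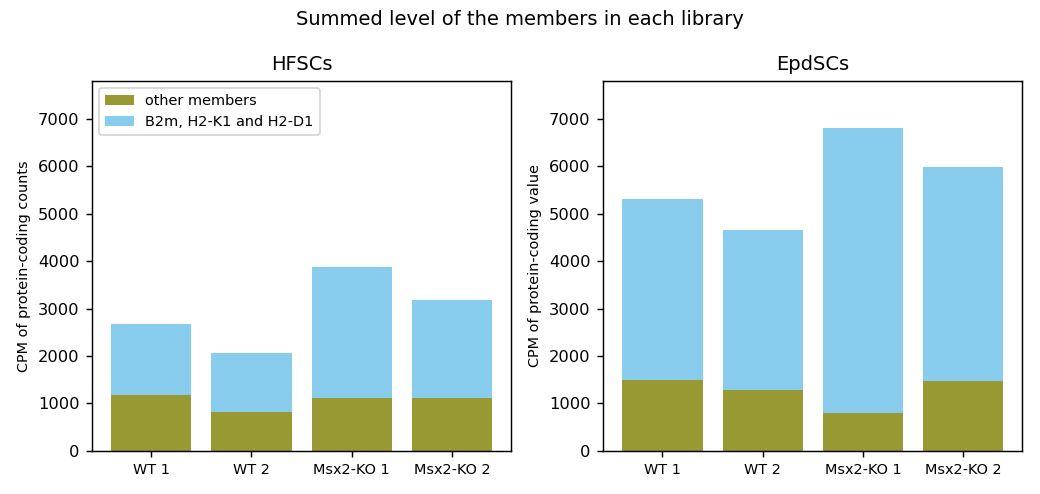
Summed level of the members in each library, as CPM over protein-coding counts (HFSCs, left) or as the same share of the protein-coding value (EpdSCs, right), split into B2m, H2-K1 and H2-D1 (blue) and all other members (olive). Each bar is 1 library; the sums were 2683 and 2073 in WT against 3880 and 3182 in Msx2-KO HFSCs, and the other members overlapped between genotypes. Relative to library totals the HFSC sums overlapped too.

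Ranked by level per kb of annotated exon in WT, B2m, H2-K1 and H2-D1 were the 3 highest members in both cell types. In HFSCs they stood at 657 ± 91.1, 621 ± 69.5 and 617 ± 26.3 normalized counts per kb (mean ± SD, n = 2), which did not differ beyond their spread. The next member, Tapbp, stood at 94.1 ± 13.9 per kb, and the 12 lowest HFSC members, from Ifit2 downwards, were at or below 3.21 per kb. In WT EpdSCs B2m stood at 8767 ± 1809, H2-D1 at 5390 ± 183 and H2-K1 at 4855 ± 350 per kb of the deposited value, followed by Ifi27 at 416 ± 69.2. The HFSC and EpdSC values were normalized in separate tables and are not on one scale.

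B2m lies on chromosome 2 (122147686 to 122153083, GRCm38/mm10, plus strand) and was measured at 620.5 and 509.7 normalized counts in WT HFSCs and at 2015 and 1426 in Msx2-KO HFSCs. These Msx2-KO values were far above the WT values in both replicates, but relative to library totals the groups overlapped. The log2 fold change was 1.61 ± 0.29 (SE), with an adjusted p of 0.143 by edgeR's quasi-likelihood test. The adjusted p was 0.00357 with DESeq2 and 0.0433 with limma on log2 CPM, but 0.596 by edgeR when libraries were scaled by their totals, where the log2 fold change dropped to 0.74. In EpdSCs B2m measured 8639 and 6439 in WT against 8658 and 13096 in Msx2-KO. Msx2-KO library 1 lay just above WT library 1 there, and the log2 fold change of 0.51 ± 0.53 (adjusted p = 0.504 by limma) was within the spread. Relative to library totals, Msx2-KO library 1 was instead the lowest EpdSC library for B2m.

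Promoter windows of RefSeq genes (GRCm38.p6, 250 bases before to 50 bases after each start) were searched on both strands for the ISRE core GAAANNGAAA and for the GAS core TTCNNNGAA, the short sites through which interferons are known to act. A window was given for 30 of the 40 members. Of these, 11 (36.7%) held the ISRE core in any window, against 3.99% of 27025 genes, and 6 (20%) held the GAS core, against 9.55%. Among the members with rows here, B2m, Stat2, Ifih1, Ddx58, Ifit1, Ifit3, Rsad2, Oas1a and Bst2 held the ISRE core and Irf1, Psmb8, Ifi35, Ifit2, Oas1a and Bst2 the GAS core. The members are genes listed for a known interferon response, so a higher share than among all genes is part of how they were picked. The cores can share the letters GAA, and in Bst2 a match of each overlapped. A match is a stretch of letters in a window and not a measured binding site.

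The stretch upstream of B2m is shown whole because B2m had the lowest p of the HFSC members, with the ISRE core in capitals 139 bases before the start (chr2:122147437-122147685, plus strand, GRCm38.p6, 5′ to 3′).
B2m: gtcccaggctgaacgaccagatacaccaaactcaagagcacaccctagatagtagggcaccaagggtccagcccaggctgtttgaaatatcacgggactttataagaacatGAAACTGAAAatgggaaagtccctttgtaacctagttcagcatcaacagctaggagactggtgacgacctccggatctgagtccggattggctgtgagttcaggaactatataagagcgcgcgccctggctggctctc

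For comparison, 30 bases around the match, which is in capitals, are shown for other members that were tested in a cell type. The first 3 hold the ISRE core or its reverse complement and the last 4 the GAS core, each given 5′ to 3′ on the strand of its gene (GRCm38.p6). Their positions are chr10:128270266-128270295 for Stat2 (plus strand), chr2:62646206-62646235 for Ifih1 (minus), chr4:40239804-40239833 for Ddx58 (minus), chr11:53769914-53769943 for Irf1 (plus), chr17:34198088-34198117 for Psmb8 (plus), chr11:101448409-101448438 for Ifi35 (plus) and chr19:34550444-34550473 for Ifit2 (plus).
Stat2: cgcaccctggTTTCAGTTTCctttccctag
Ifih1: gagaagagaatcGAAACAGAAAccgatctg
Ddx58: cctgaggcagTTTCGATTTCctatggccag
Irf1: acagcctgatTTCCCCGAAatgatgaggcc
Psmb8: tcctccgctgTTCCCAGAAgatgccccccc
Ifi35: agaagcagaaTTCACAGAAatgaaagtgga
Ifit2: catgggagcTTCCTGGAAgaatggataaaa
Genes that share a core differed in pattern. On normalized counts in HFSCs, B2m was higher and Ifih1 lower in both Msx2-KO libraries, although both hold the ISRE core. Irf1 overlapped whereas Ifit2 was at 0 counts in both Msx2-KO libraries, although both hold the GAS core.

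H2-K1 and H2-D1 encode the classical MHC class I heavy chains of this strain and lie far apart in the MHC on chromosome 17, H2-K1 at 33996017 to 34000347 on the minus strand and H2-D1 at 35262730 to 35267499 on the plus strand. H2-K1 measured 1968 and 1679.5 normalized counts in WT HFSCs and 2378 and 2447 in Msx2-KO HFSCs. Both Msx2-KO values were the higher ones, but the log2 fold change of 0.40 ± 0.23 had an adjusted p of 0.510 by edgeR and turned to -0.48 when libraries were scaled by their totals. In EpdSCs H2-K1 measured 14989.6 and 13536 in WT against 114282 and 33206 in Msx2-KO. Both Msx2-KO libraries were above WT, library 1 by far, with a log2 fold change of 2.11 ± 0.79 (adjusted p = 0.156 by limma).

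H2-D1 did not follow H2-K1. It measured 1542 and 1638 in WT HFSCs and 2553 and 1195 in Msx2-KO HFSCs, where the 2 Msx2-KO libraries lay on either side of WT (log2 fold change 0.24 ± 0.43, adjusted p = 0.898 by edgeR). In EpdSCs H2-D1 measured 14234 and 13567 in WT against 9330.1 and 8524 in Msx2-KO. Msx2-KO values were the lower ones there, by a log2 fold change of -0.64 ± 0.46 (adjusted p = 0.359 by limma), while H2-K1 was higher in the same libraries.

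The ratio of 2 genes within a library does not depend on how libraries are scaled. Per kb of exon, H2-K1 stood at 0.924 and 0.876 times H2-D1 in WT EpdSCs and at 10.8 and 3.42 times in Msx2-KO EpdSCs. In HFSCs the ratio was 1.12 and 0.900 in WT against 0.818 and 1.80 in Msx2-KO, so the WT value near 1 was shared by both cell types and the Msx2-KO libraries of HFSCs fell on either side of it. H2-K1, H2-D1 and the other class I heavy chain genes are near-identical over long stretches, and how the authors' counting split shared reads between them was not tested. A sum over listed H2 genes does not depend on how reads were split among them. It was 6917 and 5749.0 normalized counts in WT HFSCs against 7305 and 6785 in Msx2-KO (13 genes), which overlapped. EpdSCs held 38402 and 35288 in WT against 134830 and 54230 in Msx2-KO (12 genes), both Msx2-KO libraries being higher. Not all of these genes encode class I heavy chains. H2-K2 is a pseudogene, and H2-DMa and H2-DMb1 belong to MHC class II. H2-DMa and H2-DMb1 measured at most 26.9 in any HFSC library and 87.9 in any EpdSC library. These ratios and sums were chosen after the values were seen and carry no test.

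Tapbp encodes tapasin, and Tap1 and Tap2 the subunits of the peptide transporter. Tapbp measured 1417 and 1508 in WT EpdSCs and 3955 and 4891 in Msx2-KO EpdSCs. The Msx2-KO values were clearly higher and close to each other, and the log2 fold change of 1.59 ± 0.47 had an adjusted p of 0.111 by limma. In HFSCs Tapbp measured 377 and 306 in WT against 483 and 313 in Msx2-KO, which overlapped (log2 fold change 0.22 ± 0.34).

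Tap1 was lower in both Msx2-KO libraries of both cell types. It measured 358 and 229.8 in WT HFSCs and 214 and 158 in Msx2-KO HFSCs, and 2439.5 and 1972 in WT EpdSCs and 1743 and 1583 in Msx2-KO EpdSCs. The groups were separated by little, with log2 fold changes of -0.66 ± 0.40 (adjusted p = 0.547 by edgeR) and -0.40 ± 0.47 (adjusted p = 0.558 by limma). Tap2 overlapped in both cell types and was at 11.7 normalized counts in Msx2-KO HFSC library 1 against 124 to 206 in the other 3 HFSC libraries.

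Psmb8 and Psmb9 encode catalytic subunits that interferon gamma is known to exchange into the proteasome. Psmb9 measured 49.9 and 23 normalized counts in WT HFSCs and 137 and 143 in Msx2-KO HFSCs. Both Msx2-KO libraries were higher and nearly equal, with a log2 fold change of 1.94 ± 0.75 (adjusted p = 0.307 by edgeR). Psmb8 overlapped in HFSCs, at 119 and 97.9 in WT against 217.8 and 81.7 in Msx2-KO, with a log2 fold change of 0.47 ± 0.67. In EpdSCs Psmb8 measured 1009 and 768 in WT, 2.55 in Msx2-KO library 1 and 555 in library 2. The low value was in 1 library, and the log2 fold change of -4.31 ± 2.69 had an adjusted p of 0.302 by limma. Psmb9 overlapped in EpdSCs, at 342 and 282 in WT against 87.9 and 469 in Msx2-KO, with a log2 fold change of -0.61 ± 0.99.

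Tap1 (chromosome 17, 34187553 to 34197225, plus strand) and Psmb9 (34181987 to 34187764, minus strand) are divergent neighbours whose annotated first exons overlap. Per kb of exon, Tap1 stood at 4.79 and 6.67 times Psmb9 in WT HFSCs and at 4.77 and 4.67 times in WT EpdSCs, a narrow range over 4 libraries. In Msx2-KO HFSCs the ratio was 1.04 and 0.737, below both WT libraries, whereas in Msx2-KO EpdSCs it was 13.3 and 2.26, on either side of WT. Whether counting used the strand is not given in the sources used here, and without it reads from the shared stretch cannot be assigned to either gene.

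Nlrc5, the activator of MHC class I transcription, overlapped in both cell types. It measured 402 and 304 in WT HFSCs and 697 and 343 in Msx2-KO HFSCs, and 2935 and 2478 in WT EpdSCs and 3889 and 2534 in Msx2-KO EpdSCs. Of the 9 MHC class I members, all of which were tested in both cell types, 7 had a positive log2 fold change in HFSCs under TMM scaling and 5 in EpdSCs, and all of the HFSC ones except B2m and Psmb9 turned under library totals.

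**Figure D2:**
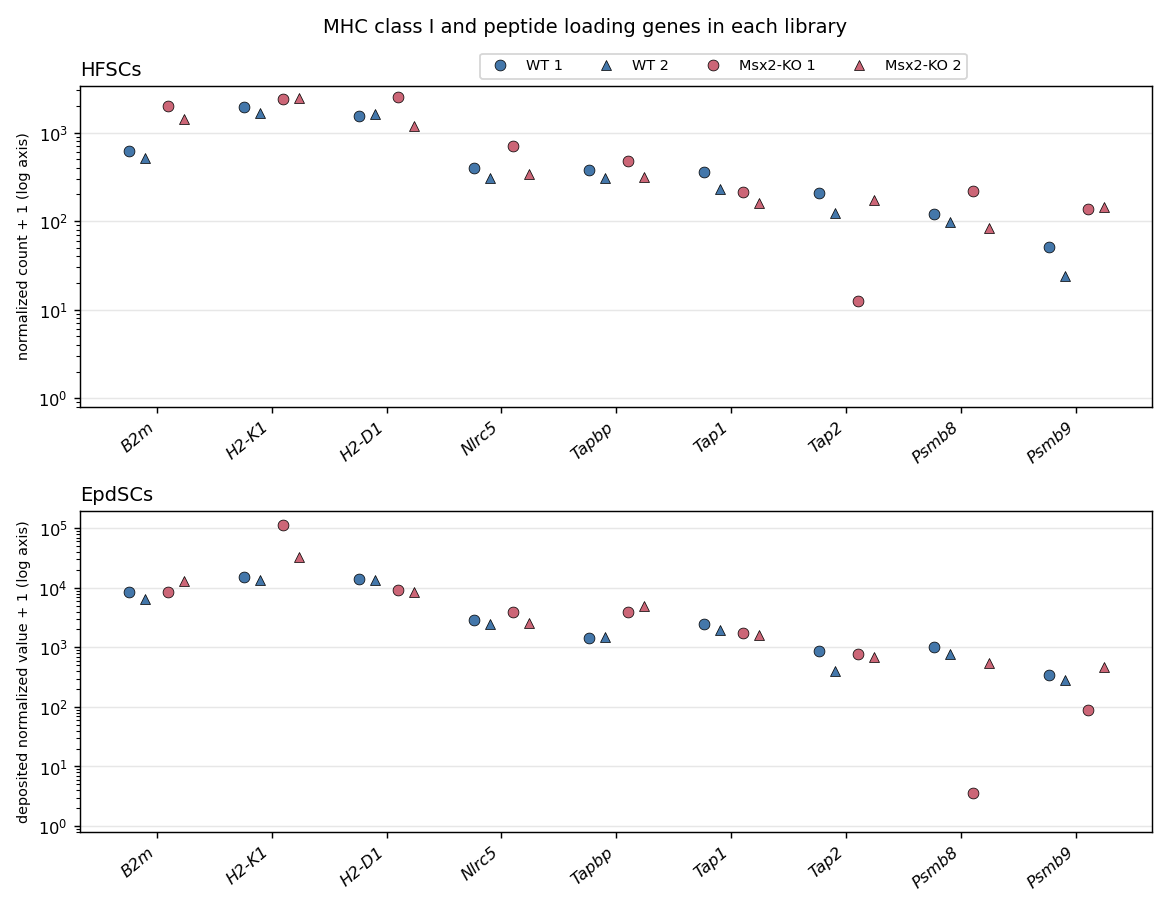
Levels of the 9 MHC class I and peptide loading members in each library, as normalized count + 1 in HFSCs (top) and deposited normalized value + 1 in EpdSCs (bottom), both on log axes. Each point is 1 library (WT blue, Msx2-KO red; circles replicate 1, triangles replicate 2); in HFSCs B2m and Psmb9 were higher in both Msx2-KO libraries, and in EpdSCs H2-K1 and Tapbp were.

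Among the signalling factors, Irf9 and Stat2 encode proteins that bind the ISRE together. Irf9 measured 97.8 and 69.7 normalized counts in WT HFSCs and 135 and 134 in Msx2-KO HFSCs. It was higher in both Msx2-KO libraries, with a log2 fold change of 0.69 ± 0.55 (adjusted p = 0.677 by edgeR), which turned to -0.23 when scaled by library totals. In EpdSCs Irf9 measured 643 and 416 in WT against 518 and 1669.5 in Msx2-KO, which overlapped (log2 fold change 0.84 ± 0.80). Stat2 measured 132 and 99.9 in WT HFSCs, 0 in Msx2-KO library 1 and 107 in Msx2-KO library 2. Only 1 library was at 0, from 157, 49, 0 and 80 counts, and the log2 fold change was -1.13 ± 2.24 (adjusted p = 0.909 by edgeR). In EpdSCs Stat2 measured 319.5 and 270.3 in WT against 1219.9 and 355 in Msx2-KO, and the log2 fold change of 1.16 ± 0.80 had an adjusted p of 0.340 by limma.

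Irf1, an early interferon gamma target, overlapped in both cell types. It measured 63.8 and 31.4 in WT HFSCs and 42.6 and 107 in Msx2-KO HFSCs (log2 fold change 0.65 ± 1.00), and 234 and 257 in WT EpdSCs and 249.6 and 173 in Msx2-KO EpdSCs (log2 fold change -0.24 ± 0.50).

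As normalized, Irf7, which amplifies type I interferon production, was the member whose groups separated in opposite directions in the 2 cell types. It measured 16.0 and 28.5 normalized counts in WT HFSCs and 102 and 38.8 in Msx2-KO HFSCs, a log2 fold change of 1.67 ± 1.13 (adjusted p = 0.600 by edgeR). In EpdSCs Irf7 measured 54.2 and 30.4 in WT, was listed at 0 in Msx2-KO library 1 and measured 8.09 in library 2, a log2 fold change of -3.79 ± 1.28 (adjusted p = 0.133 by limma). Both Msx2-KO libraries were the higher ones in HFSCs and the lower ones in EpdSCs. Relative to library totals, however, Msx2-KO HFSC library 2 lay below both WT HFSC libraries, so the HFSC groups overlapped. The difference between the cell types was not tested, since the tables were normalized separately.

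Usp18, a protease that removes ISG15 and restrains interferon receptor signalling, was lower in both Msx2-KO libraries of both cell types. It measured 51.4 and 50.7 in WT HFSCs, 0 in Msx2-KO library 1 and 25.4 in library 2, with a log2 fold change of -2.02 ± 2.34 (adjusted p = 0.807 by edgeR). In EpdSCs Usp18 measured 237 and 226 in WT against 6.37 and 58.6 in Msx2-KO. The WT libraries were close to each other and both Msx2-KO libraries were well below them, with a log2 fold change of -3.47 ± 1.19 (adjusted p = 0.135 by limma).

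The sensors Ifih1 (MDA5), Ddx58 (RIG-I) and Dhx58 (LGP2) recognise viral RNA, and Zbp1 recognises Z-form nucleic acid. Ifih1 measured 127 and 120.3 normalized counts in WT HFSCs and 28.9 and 28.1 in Msx2-KO HFSCs. The replicates of each genotype lay close together, and the log2 fold change of -2.11 ± 0.73 had an adjusted p of 0.248 by edgeR. Counts of 151, 59, 42 and 21 stood behind these values. In EpdSCs Ifih1 overlapped, at 383 and 394 in WT against 485 and 237 in Msx2-KO. Ddx58 overlapped in both cell types. Dhx58 was below the filter in HFSCs and in EpdSCs ranged from 4.74 to 264, the highest value being Msx2-KO library 1.

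Parp9 and Dtx3l form a complex that ADP-ribosylates ubiquitin, Parp14 is an ADP-ribosyltransferase, and Trim25 is a ubiquitin ligase of the RIG-I pathway. Parp9 measured 65.6 and 48.0 in WT HFSCs and 95.5 and 219.2 in Msx2-KO HFSCs, with a log2 fold change of 1.45 ± 0.70 (adjusted p = 0.420 by edgeR). Its partner Dtx3l measured 152 and 125 in WT HFSCs and 6.87 and 113 in Msx2-KO HFSCs, with a log2 fold change of -1.22 ± 1.37 (adjusted p = 0.797 by edgeR). Parp9 was higher and Dtx3l lower in both Msx2-KO libraries, but the low Dtx3l value was in library 1 alone. Relative to library totals the Parp9 groups overlapped.

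Parp9 (chromosome 16, 35938470 to 35972605, plus strand) and Dtx3l (35926511 to 35939151, minus strand) are also divergent neighbours with overlapping annotated starts. Per kb of exon, Parp9 stood at 0.509 and 0.450 times Dtx3l in WT HFSCs and at 16.3 and 2.29 times in Msx2-KO HFSCs. Both Msx2-KO HFSC ratios were above the WT ones. In EpdSCs the ratio was 0.602 and 0.712 in WT against 0.496 and 0.996 in Msx2-KO, on either side of WT. Both genes overlapped between genotypes in EpdSCs, where Parp9 measured 399 and 426 in WT against 652 and 409 in Msx2-KO and Dtx3l 779 and 702 in WT against 1545 and 483 in Msx2-KO.

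**Figure D3:**
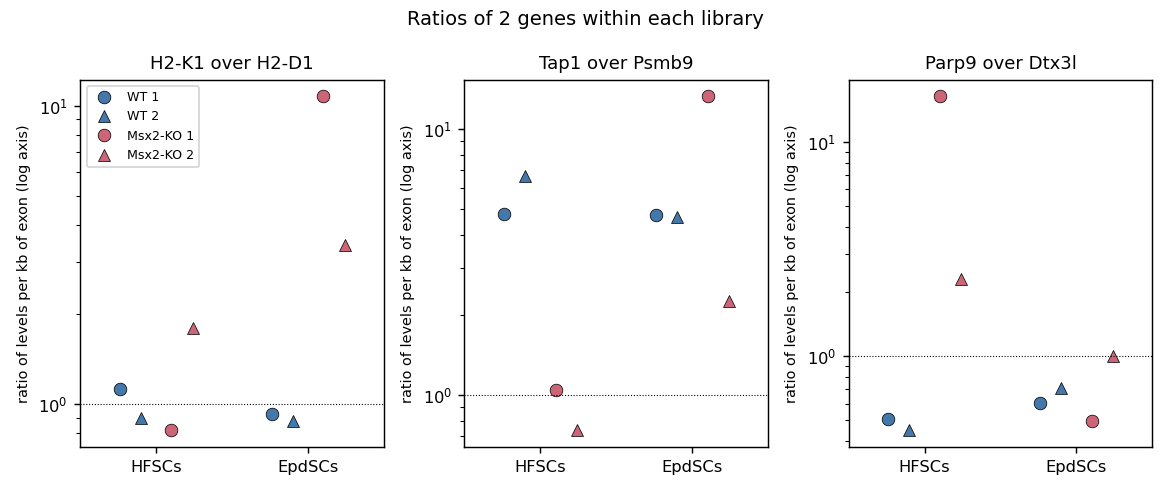
Ratio of 2 genes within each library, as levels per kb of annotated exon on a log axis, for H2-K1 over H2-D1, Tap1 over Psmb9 and Parp9 over Dtx3l. Each point is 1 library (WT blue, Msx2-KO red; circles replicate 1, triangles replicate 2); the dotted line marks a ratio of 1, and the WT libraries of both cell types lie close together in each panel.

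Parp14 was lower in both Msx2-KO libraries of EpdSCs. It measured 537 and 709 in WT against 113 and 104 in Msx2-KO, with a log2 fold change of -2.50 ± 0.48 (adjusted p = 0.0609 by limma). The 2 Msx2-KO libraries were nearly equal and far below WT. With a pseudocount of 10 in place of 1, limma called Parp14 and Xaf1 (2 of 29 members, 12.2% of all genes), and with an intensity trend limma called Parp14 alone (13.1% of all genes). In HFSCs Parp14 overlapped, at 337 and 204 in WT against 242 and 233 in Msx2-KO, with a log2 fold change of -0.19 ± 0.38. Trim25 measured 352 and 289 in WT HFSCs and 30.9 and 244 in Msx2-KO HFSCs, with a log2 fold change of -1.23 ± 1.02, the low value being in library 1. In EpdSCs Trim25 overlapped, at 1008 and 843 in WT against 433 and 2746 in Msx2-KO.

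Of the 17 antiviral effectors, 14 had an HFSC row and 6 of those passed the filter. The WT levels were low: of the 6, Ifi35 at 79.4 and 59.1 and Ifi27 at 59.8 and 51.0 normalized counts were the highest, and both overlapped with Msx2-KO. Xaf1, Ifi44 and Ifit1 overlapped as well. Ifit2, which binds viral RNA, had 13 and 7 counts in WT HFSCs and 0 in both Msx2-KO libraries, and so passed the filter through WT alone. The WT mean of Ifit2 was 4.15 times a floor of 3 counts per Msx2-KO library, with an adjusted p of 0.143 by edgeR. That is not a bound on the change, since a Msx2-KO library could be at 0 for a gene that the other one counted. Stat2, for example, had 0 counts in Msx2-KO HFSC library 1 and 80 in library 2.

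The 10 HFSC members below the filter were the sensors Dhx58 and Zbp1 and the effectors Ifit3, Oasl1, Oasl2, Mx1, Rsad2, Rtp4, Samd9l and Cmpk2. Their raw counts ran from 0 to 28 in WT and from 0 to 8 in Msx2-KO. Of the 10, 8 were at 0 in both Msx2-KO libraries, all but Dhx58 and Oasl2. Mx1 had 6 and 1 counts in WT HFSCs, and Rsad2 (viperin) had 2 and 2, so that a fall to 0 was not measurable at this depth. Samd9l, with 11 and 5 counts in WT, had a WT mean of 3.20 times the same floor, which again is not a bound.

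In EpdSCs 8 effectors had a row, and 6 of them (Ifi35, Xaf1, Oas1a, Oasl2, Bst2 and Samd9l) were lower in both Msx2-KO libraries, as were 44.5% of all EpdSC genes. Xaf1, a pro-apoptotic partner of XIAP, measured 59.6 and 53.1 in WT against 2.55 and 6.74 in Msx2-KO. The Msx2-KO values were far below WT, with a log2 fold change of -3.45 ± 0.62 (adjusted p = 0.0545 by limma). Ifi35 measured 185 and 197 in WT against 6.37 and 129 in Msx2-KO, with a log2 fold change of -2.63 ± 1.57 (adjusted p = 0.287 by limma), the low value again being library 1. Samd9l measured 26.0 and 25.6 in WT against 2.55 and 12.1 in Msx2-KO. Ifi27, the highest effector, overlapped at 682 and 539 in WT against 1662 and 617 in Msx2-KO.

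Oas1a and Oasl2, of the oligoadenylate synthetase family, and Bst2 (tetherin) differed between the 2 WT EpdSC libraries. Oas1a measured 44.6 and 5.69 in WT, was listed at 0 in Msx2-KO library 1 and measured 4.82 in library 2. Oasl2 measured 72.6 and 10.4 in WT, 0 and 4.04 in Msx2-KO, and Bst2 26.0 and 6.64 in WT, 0 and 2.7 in Msx2-KO. All 3 were highest in WT library 1, and WT library 2 lay closer to Msx2-KO library 2 than to WT library 1. WT library 1 also held the most leukocyte marker signal: the 12 of 17 such markers with a row summed to 1187 there, against 146 in WT library 2 and 509 and 184 in Msx2-KO, and Cd3g, a T cell receptor component, measured 131 there against at most 1.90 elsewhere. Most of the Msx2-KO sum was the MHC class II gene H2-Eb1, at 484 and 171 in Msx2-KO against 105 and 28.5 in WT, while Cd74 measured 0 and 2.7 in Msx2-KO against 374 and 37.9 in WT and H2-Ab1 0 and 4.04 against 227 and 49.3. Of those 12 markers 9 were listed at 0 in Msx2-KO library 1, among them Ptprc, and the part of leukocytes in these 3 members was not tested. In bulk RNA, fewer cells of a type and less RNA per cell cannot be told apart.

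**Figure D4:**
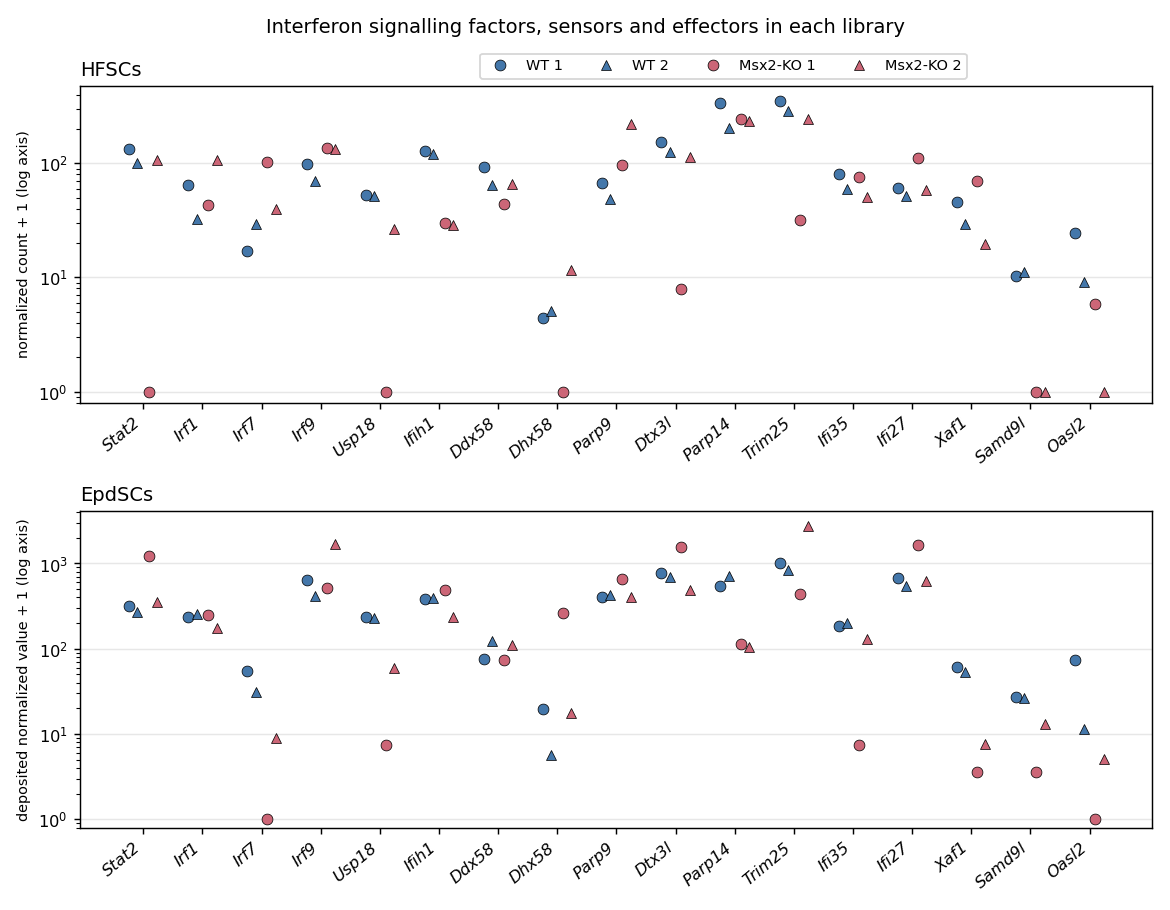
Levels of 17 interferon signalling, sensor, ubiquitin and effector members in each library, as normalized count + 1 in HFSCs (top) and deposited normalized value + 1 in EpdSCs (bottom) on log axes, where a value of 0 sits at 1. Each point is 1 library (WT blue, Msx2-KO red; circles replicate 1, triangles replicate 2); in HFSCs Ifih1 was lower in both Msx2-KO libraries, and in EpdSCs Parp14, Xaf1, Usp18 and Irf7 were.

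Of the 23 members tested in both cell types, B2m and H2-K1 were higher in both Msx2-KO libraries of both cell types as normalized. Relative to library totals, B2m overlapped in both cell types and H2-K1 overlapped in HFSCs. Tap1 and Usp18 were lower in both cell types. As normalized, Irf7 separated in opposite directions, but relative to library totals its HFSC groups overlapped. Among the 13151 genes tested in both, 746 were higher in both, 2010 lower in both and 1049 higher in HFSCs but lower in EpdSCs.

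**Figure D5:**
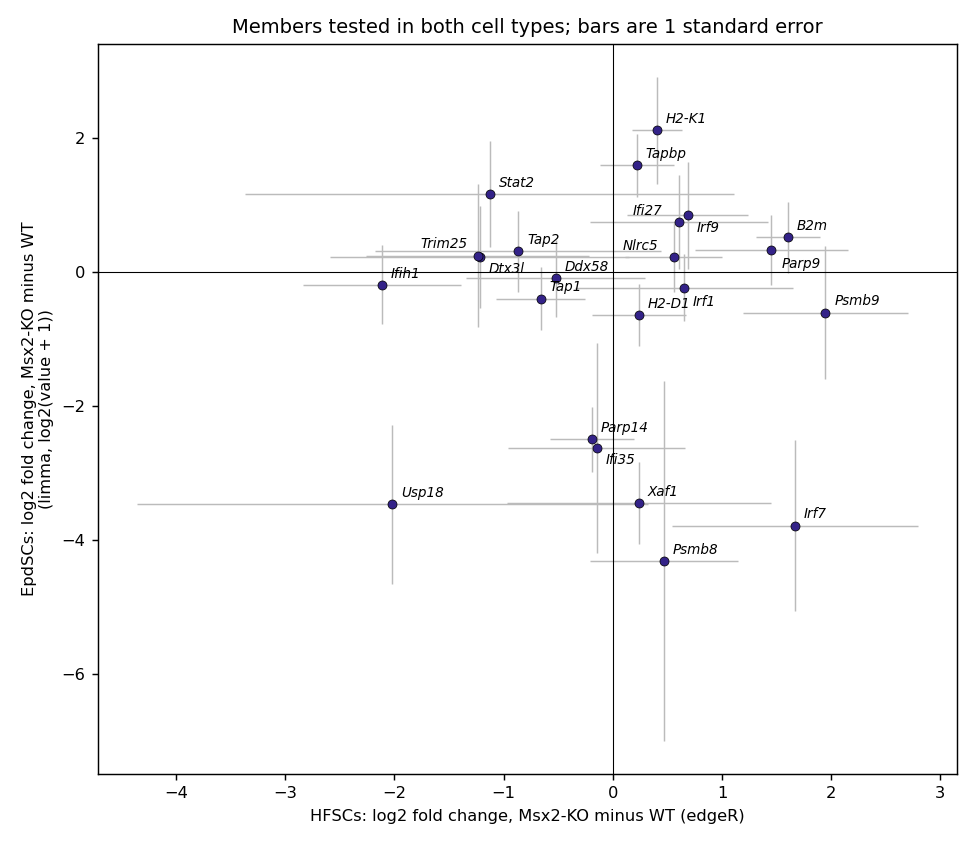
Log2 fold change (Msx2-KO minus WT) of the 23 members tested in both cell types, in HFSCs by edgeR (x axis) and in EpdSCs by limma on log2(value + 1) (y axis). Points are genes and bars are 1 standard error; Irf7 lies at 1.67 and -3.79, and B2m and H2-K1 lie above 0 on both axes, H2-K1 in HFSCs not when scaled by library totals.

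The outcome of the tests turned on the Msx2-KO libraries. Without Msx2-KO library 1, edgeR called 4 of 28 HFSC members (B2m, Psmb9 and Parp9 higher, Ifih1 lower) and 36.6% of all genes, and limma called 6 of 29 EpdSC members (H2-K1, Tapbp and Trim25 higher, Parp14, Usp18 and Xaf1 lower) and 37.6% of all genes. Without Msx2-KO library 2, 12 of 28 HFSC members and 59.1% of genes were called, and 13 of 29 EpdSC members and 63.9% of genes. With either WT library left out, no member was called in either cell type, with 1.04% and 0.797% of HFSC genes and 0% of EpdSC genes called. With 1 library left in a group, the fit assumes that it varies like the other group. In each fit without an Msx2-KO library, members were called less often than all genes. B2m, Psmb9 and Ifih1 in HFSCs were called with either Msx2-KO library left out, as were H2-K1, Tapbp, Parp14, Usp18 and Xaf1 in EpdSCs. The share of all genes called both times was not counted, so these members are not set apart from other genes.

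The rest of the pathway was covered by 106 further genes, of which 66 were tested in HFSCs and 79 in EpdSCs. In HFSCs edgeR called none of the 66, with 9 at an unadjusted p under 0.05 (2 higher and 7 lower) against 18.1% of all genes. Of the lower ones, Ifnlr1, Oas1b, Oas1c, Igtp, Trim12c and Gbp6 were at 0 counts in both Msx2-KO libraries. They passed the filter through WT alone, so their direction was fixed beforehand. DESeq2 called 3 of the 66 against 4.67% of all genes, and limma with a mean trend 7 against 9.76%, so none of these counts stood clearly above the share over all genes. In EpdSCs limma called 2 of the 79, both lower, against 7.78% of all genes. These were Sp110, an interferon-induced nuclear body protein, at 32.7 and 42.4 in WT, and Ciita, the activator of MHC class II, at 39.0 and 36.0 in WT. Both were listed at 0, or at a value not distinguishable from 0, in both Msx2-KO libraries (adjusted p = 0.0266 each by limma). Neither was called without either WT library, nor by edgeR on divided and rounded values, where 0 of the further pathway genes were called.

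Among ligands and receptors, Ifnk, the interferon kappa of keratinocytes, measured 32.5 and 25.6 in WT EpdSCs and 0 and 4.04 in Msx2-KO EpdSCs, and had at most 2 counts in any HFSC library. Ifngr1, the ligand-binding chain of the interferon gamma receptor, measured 2350.4 and 2303 in WT EpdSCs and 13521 and 9142 in Msx2-KO EpdSCs, a log2 fold change of 2.26 ± 0.50 (adjusted p = 0.0742 by limma). In HFSCs Ifngr1 overlapped, at 129 and 108 in WT against 116 and 118 in Msx2-KO. Its partner chain Ifngr2 was higher in both Msx2-KO libraries of both cell types, at 52.2 and 55.0 in WT HFSCs against 217.8 and 62.9, and at 291 and 299.7 in WT EpdSCs against 399.8 and 617. Ifnar1 and Ifnar2 form the type I receptor. Ifnar1 overlapped in HFSCs and measured 540.5 and 538 in WT EpdSCs against 214 and 406 in Msx2-KO, whereas Ifnar2 measured 57.4 and 58.8 against 111 and 106. Ifnlr1, of the type III receptor, had 56 and 21 counts in WT HFSCs and 0 in both Msx2-KO libraries. Its WT mean was 14.8 times the floor of 3 counts per library, which is not a bound on the change. In EpdSCs Ifnlr1 instead measured 277 and 295 in WT against 599.8 and 429 in Msx2-KO.

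Ly6a, which encodes Sca-1 and marks the EpdSC gate, measured 472 and 544 in WT EpdSCs and 826 and 3493 in Msx2-KO EpdSCs.

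Other antigen processing genes also separated without being called. Psme2, a subunit of the proteasome activator, measured 30.1 and 17.2 in WT HFSCs and 111 and 131 in Msx2-KO HFSCs, whereas its partner Psme1 measured 267 and 259 against 44.0 and 229. In EpdSCs both were lower in Msx2-KO, Psme1 at 1065 and 744 in WT against 220.3 and 568, and Psme2 at 197 and 137 against 38.0 and 83.5. Psmb10, the remaining immunoproteasome subunit, was at 0 in both Msx2-KO HFSC libraries from 16.0 and 6.12 in WT, and in EpdSCs measured 75.8 and 53.1 in WT against 0 and 78.2 in Msx2-KO.

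The non-classical heavy chain gene H2-Q7 measured 1194 and 825 in WT HFSCs and 483 and 675 in Msx2-KO HFSCs, but 2827 and 2427 in WT EpdSCs and 8008 and 6289 in Msx2-KO EpdSCs. H2-T22 in EpdSCs was higher too, at 997 and 835 in WT against 2018 and 3128. H2-Q4 and H2-T23 in EpdSCs were lower, H2-Q4 at 1966 and 1915 in WT against 0 and 610.3, and H2-T23 at 1611 and 1264 against 0 and 216. Near-identical genes of this family thus had values in opposite directions within the same 2 libraries. The chaperone genes Calr and Canx were lower in both Msx2-KO HFSC libraries, Calr at 959.8 and 1162 in WT against 732 and 821, and Canx at 988 and 1176 against 972 and 883.

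Of the remaining abundant pathway genes that separated in EpdSCs, Stat3 (2075 and 2272 in WT against 6692 and 3294), Canx (5330.2 and 5134 against 20268 and 5856), Samhd1 (766 and 552 against 898 and 863) and Shisa5 (611 and 653 against 3979 and 1457) were higher in Msx2-KO. Irf3, the factor downstream of the nucleic acid sensors, measured 701 and 667 against 249.6 and 406, and its kinase Ikbke 919 and 956 against 91.7 and 357. Ly6e measured 623 and 739 against 483 and 603. None of these genes was called.

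Cell type markers differed between genotypes beside these members. The HFSC markers Cd34 and Krt15 were abundant in every HFSC library, Cd34 at 3096 and 2752 in WT against 1118 and 906 in Msx2-KO, and all 6 HFSC markers summed to 38302 and 36843 in WT against 19760 and 21469 in Msx2-KO. Krt10, a keratin of differentiating epidermis, measured 219.7 and 118 in WT HFSCs and 2545 and 10251 in Msx2-KO HFSCs, while in EpdSCs it measured 158740.0 and 107937 in WT against 16336 and 30738 in Msx2-KO. The other markers listed with Krt10 did not all follow it. In HFSCs Krt1 and Krtdap were higher in both Msx2-KO libraries, but Sbsn overlapped, at 705 and 1070 in WT against 390 and 981. In EpdSCs Krt1 and Sbsn were lower in both Msx2-KO libraries, whereas Krtdap overlapped and Ly6a was higher. Of the 4 basal keratinocyte markers, Krt5, Itga6 (which encodes the CD49f of both gates) and Itgb4 were lower and Krt14 higher in both Msx2-KO HFSC libraries. In EpdSCs Krt5, Krt14 and Itga6 were higher in both Msx2-KO libraries, Krt14 at 71869 and 84155 in WT against 392157 and 275191 and Itga6 at 8229 and 9959 against 68397 and 32855, but Itgb4 was lower, at 7432 and 11067 against 183 and 1148. Leukocyte markers summed to 95.1 and 40.8 in WT against 127 and 120 in Msx2-KO HFSCs over the 9 of 17 with a row, and 8 and 7 of the 9 were at 0 in Msx2-KO libraries 1 and 2, Ptprc among them. Nearly all of that Msx2-KO signal was Cd74, the MHC class II invariant chain, at 127 and 65.6, and Cd68. Whether a changed mix of epidermal cells takes part in the member differences was not tested.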

How the data were processed

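Total RNA of sorted cells was made into libraries with a stranded total RNA kit, and the authors aligned reads with STAR 2.7.3a to GRCm38/mm10 and quantified genes in Partek, per the submitters' processing notes. The deposited HFSC table held estimated counts per gene, which need not be whole and were rounded. The deposited EpdSC table held a normalized signal per gene. Its low values came in steps, but only 72.6% to 82.2% of values up to 1000 were whole multiples of a step (tolerance 0.01), so counts were not taken as recovered and read depth is unknown. Columns of the authors' own comparisons, which hold fold changes and p-values, were not used. HFSC counts were filtered with edgeR's filterByExpr, then fitted by the quasi-likelihood method of edgeR 4.0.16 with TMM scaling. Normalized counts are per 6306572 effective counts, the effective count being a library's total over tested genes times its TMM factor. Summed over all tested genes, they ran from 3591540 in WT library 1 to 9182870 in Msx2-KO library 2. For EpdSCs, limma 3.58.1 was run on log2(value + 1), a scale that understates changes of low genes. DESeq2 1.42.0, other scalings, filters and pseudocounts, and each library left out in turn were the alternatives. All fits ran over the whole table in R 4.3.3, with Benjamini-Hochberg adjustment over all genes tested. Scripts were tested on simulated data. Gene positions, strands and exon lengths came from GENCODE M21. Members and lists were chosen with earlier results of these data known. Library values were given for members whose groups separated with a mean of at least 100, for Stat2, Irf1, Irf7, Irf9, B2m, H2-K1 and H2-D1, and for other genes where called, abundant (mean of at least 500) and separated, or direct partners. Results for some further pathway genes that meet this rule are not reported here.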

Additional observations from a re-analysis of the deposited data

Results flagged for a closer look

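Irf7 was picked out because both Msx2-KO libraries lay above WT in HFSCs and below WT in EpdSCs, with a log2 fold change of 1.67 in HFSCs and -3.79 in EpdSCs. The difference between the cell types was not tested. Its levels were low, 14 to 149 counts in HFSCs, and the HFSC genotypes also differed in age. Relative to library totals the HFSC groups of Irf7 overlapped.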

How the results depend on the processing

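The block is given first. Same-numbered libraries did not deviate together (r = -0.0566 in HFSCs and -0.0225 in EpdSCs over genes). With 2 libraries a group this cannot show whether libraries were paired, and replicate numbers were used only to name libraries. With the replicate number as a block no member was called in either cell type, with an HFSC member median of -0.071. Members called in HFSCs numbered 0 in the report, 1 with DESeq2 and 2 with limma on log2 CPM, and further pathway genes called numbered 0, 3 and 7. The HFSC member median of 0.24 became -0.053 with limma on log2 CPM, -0.59 with library totals and -0.38 with no filter on low counts. Library totals moved the median of all HFSC genes from -0.14 to -1.002, and turned Irf1 to -0.39, Irf9 to -0.23, H2-K1 to -0.48, H2-D1 to -0.55, Tapbp to -0.64 and Psmb8 to -0.36. In EpdSCs, members called numbered 0 in the report, 2 with a pseudocount of 10 and 1 with an intensity trend. The member median of -0.24 became -0.51 with equal library totals and 0.059 with edgeR on divided and rounded values, which called no further pathway gene in place of 2 and turned Psmb9 to 0.059. With each library left out in turn, HFSC members called ran from 0 to 12, further pathway genes from 0 to 38 and the member median from -0.27 to 0.35, and EpdSC members called ran from 0 to 13, further pathway genes from 0 to 50 and the member median from -0.47 to -0.23. HFSC log2 fold changes that turned ran from -0.60 to 0.20 for Parp14, -0.15 to 0.49 for Tapbp, -0.44 to 0.68 for H2-D1, -0.44 to 0.99 for Psmb8 and -0.20 to 1.27 for Irf1, and in EpdSCs from -1.81 to 0.59 for Psmb9 and -0.50 to 0.024 for Irf1. The causes were not tested. Depth limits genes at a few counts, and 2 libraries a group limit every test.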
